A study of Mus musculus with 2 samples.

Results

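The RNA genes described here were Rpph1, Rmrp, Terc, Rny1 and Rny3, the RNA parts of RNase P, RNase MRP, telomerase and the Ro particles. They were chosen by symbol, by a rule that itself uses no measured value. The 5 symbols matched 6 gene identifiers of 55536 mouse gene identifiers, because Rmrp carries 2 identifiers, a ribozyme entry and a lincRNA entry (long intergenic noncoding RNA). Rpph1 and Rmrp were among the most abundant RNAs of the libraries, Terc stood at a few TPM (a level per unit of transcript length, scaled to a fixed sum), and Rny1 and Rny3 were listed at 0 in the main quantification.

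Rpph1 is the catalytic RNA of RNase P, which cuts the 5′ leader from precursor tRNAs. Rmrp is the related RNA of RNase MRP, which works in the nucleolus on precursor ribosomal RNA and shares most of its proteins with RNase P. Terc is the telomerase RNA, whose template is copied into telomere repeats by the reverse transcriptase Tert, and its 3′ end folds as an H/ACA RNA bound by dyskerin. The Y RNAs Rny1 and Rny3 are short stem-loop RNAs bound by the Ro60 and La proteins and have been linked to RNA quality control and DNA replication. Rpph1, Rmrp and the Y RNAs are made by RNA polymerase III from promoters that lie upstream of the RNA, whereas Terc is made by RNA polymerase II.

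The libraries were ribosomal RNA-depleted total RNA from the nucleoplasmic fraction of bone-marrow-derived macrophages (BMDM) of C57BL/6J mice. The cells had been given lipid A, the TLR4-binding part of bacterial lipopolysaccharide, at 100 ng/ml for 20 min, and sex and age were not collected. There was 1 group with 2 biological replicates, made from 1 µg of RNA (replicate 1) and 500 ng (replicate 2), and the RNA input cannot be told apart from the replicate. The labels give both the same donor and do not say whether they were separate cultures, and no untreated library or other fraction was used, so no effect of lipid A was tested. Total expected counts over genes were 18194818 and 18667509 in the first quantification, whose columns are those of RSEM, and 25547670 and 29737809 in the second, whose columns are those of kallisto. All 10 macrophage markers examined reached 1 TPM in both libraries of either quantification, and markers of B cells (0 of 5), neutrophils and progenitors (0 of 6) and stromal cells (0 of 4) did not. In the first quantification Cd4 (1 of 6 T and NK cell markers) and Itga2b and Pf4 (2 of 4 megakaryocyte markers) reached 1 TPM, with Cd3e and Nkg7 at 0 counts. In the second, 3 of 6 T and NK cell markers did, Cd3d (2.90 and 9.43 TPM) and Cd8a (1.03 and 1.60 TPM) beside Cd4, and 1 of 4 megakaryocyte markers, while Cd3e had 5.08 and 2 estimated counts and Nkg7 had 0. The libraries also differed in mitochondrial RNA (3.19% of counts in replicate 1, 10.5% in replicate 2) and in ribosomal RNA loci (1.88% and 0.253%). The part of these differences in the results below was not tested.

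The sequences of the Rmrp entries show why their counts are described together. The ribozyme entry, 271 bases at chr4:43492788-43493058 on the minus strand of mm10, lies inside the lincRNA entry, 281 bases at chr4:43492783-43493063. In the GENCODE M21 sequence of the longer entry, printed 5′ to 3′, capitals mark the bases that the shorter entry lacks, 5 at each end.
Rmrp: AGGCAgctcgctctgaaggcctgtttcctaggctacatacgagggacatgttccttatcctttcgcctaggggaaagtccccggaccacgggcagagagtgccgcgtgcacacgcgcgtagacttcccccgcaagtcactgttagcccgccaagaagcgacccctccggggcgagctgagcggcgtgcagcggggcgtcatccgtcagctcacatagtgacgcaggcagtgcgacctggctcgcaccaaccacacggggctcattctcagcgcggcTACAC
All 241 overlapping 31-base words of the ribozyme entry also occurred in the lincRNA entry, and they made up 96.0% of the words of the lincRNA entry. Only reads that reach the outer bases can tell the entries apart.

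The Y RNAs are shown whole because they are the shortest members and had an effective length of 0 in the first quantification. Rny1 lies on chr6:47788069-47788180 on the minus strand and Rny3 on chr6:47781624-47781725 on the plus strand. Capitals mark the 81 identical bases in their alignment of 112 columns (72.3% identity).
Rny1: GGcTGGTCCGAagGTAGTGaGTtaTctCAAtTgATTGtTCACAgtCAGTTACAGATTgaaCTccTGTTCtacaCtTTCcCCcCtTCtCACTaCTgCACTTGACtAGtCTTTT
Rny3: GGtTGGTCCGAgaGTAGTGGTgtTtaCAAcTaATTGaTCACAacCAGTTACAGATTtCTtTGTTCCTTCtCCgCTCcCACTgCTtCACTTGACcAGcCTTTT
The longest run they shared was 12 bases, and both ended in 4 T, the usual stop signal of RNA polymerase III. Rny3 shared no 31-base word with another GENCODE transcript, and Rny1 shared 31 of its 82 words (37.8%) with Gm26168, a misc_RNA entry at 0 counts in both libraries and both quantifications. The 102 bases of Rny3 and 112 bases of Rny1 were 45.1% and 43.8% G or C, against 67.1% in Rpph1, 64.2% in the ribozyme entry of Rmrp and 67.1% in Terc.

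Terc, 423 bases at chr3:96414437-96414859 on the minus strand, is shown by its ends because these carry its template and its H/ACA tail. CTAACC, the letters of the telomere-repeat template, occurred at 1 place, bases 29 to 34, and is in capitals in the first 60 bases. The ACA that stands before the last 3 bases is in capitals in the last 60 bases.
Terc 5′ end: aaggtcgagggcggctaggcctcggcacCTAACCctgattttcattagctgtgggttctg
Terc 3′ end: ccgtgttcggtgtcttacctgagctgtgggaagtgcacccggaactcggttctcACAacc
The GENCODE entry starts 26 bases before that of RefSeq, which is 397 bases long and in which the template letters were bases 3 to 8. Terc shared no 31-base word with any other transcript.

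Rpph1, 319 bases at chr14:50807449-50807767 on the minus strand, stands 73 bases from Parp2, a poly(ADP-ribose) polymerase gene on the other strand. None of the 5 genes was in the RefSeq promoter table (GRCm38.p6), but the window of Parp2 covered 198 bases upstream of Rpph1. TTATA (searched with its complement TATAA on both strands) stood 33 to 29 bases before Rpph1 and is in capitals in the 73 bases between the genes, followed here by the first 35 bases of the RNA. ATTTGCAT, the octamer bound by Pou2f1, stood 100 to 93 bases before Rpph1 on the opposite strand and is shown with its flanks. RefSeq gives Rpph1 as 325 bases at chr14:50807447-50807771, with a start further upstream. The distances given here hold for the GENCODE start, and by RefSeq the last bases of the upstream stretch belong to the RNA.
Rpph1 upstream and 5′ end (chr14:50807733-50807840, minus strand): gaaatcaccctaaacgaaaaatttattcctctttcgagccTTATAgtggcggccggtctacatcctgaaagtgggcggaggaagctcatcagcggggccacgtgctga
Rpph1 octamer (chr14:50807849-50807878, minus strand): gggtagagcgcATGCAAATtacgcgctgtg
Upstream of Rmrp, the window of Ccdc107 left the 56 bases next to the ribozyme entry uncovered. It held CCAAT 75 to 71, TTATA 168 to 164 and ATTTGCAT 223 to 216 bases before Rmrp, the last in capitals below.
Rmrp upstream (chr4:43493248-43493307, minus strand): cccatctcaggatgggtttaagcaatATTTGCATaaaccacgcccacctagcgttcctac
Of 32851 promoter windows in the table, 24.9% held TATAA or its complement, 37.4% held CCAAT and 1.74% held ATTTGCAT, on either strand. These are letter matches, and no binding was measured.

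Rpph1 had 65142 expected counts in replicate 1 and 124540 in replicate 2. These were 0.358% (exact Clopper-Pearson 95% interval 0.355 to 0.361) and 0.667% (0.663 to 0.671) of all counts, where intervals cover counting error only. Rpph1 was the higher in replicate 2. Its level was 29483 and 42770 TPM, or 36127 ± 9395 (SD, n = 2). In the second quantification its estimated counts were 68307 and 151881, and its TPM was 8941 and 23000, again higher in replicate 2. The second TPM is lower in both libraries. The 2452 genes of any type of 100 bases or fewer took 46.9% and 24.1% of all TPM in that table. In the first, none of the 2190 noncoding genes of this length had counts. The part of these short genes in the lower TPM was not tested.

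Rmrp had 120435 and 74303 expected counts over both entries, 0.662% (0.658 to 0.666) and 0.398% (0.395 to 0.401) of all counts. Its summed level was 82617 and 38959 TPM, or 60788 ± 30871 (SD, n = 2), and replicate 1 was the higher. The second quantification gave 125204 and 95656 estimated counts and 22646 and 19928 TPM.

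Rmrp and Rpph1 changed places between the libraries. Rmrp was the higher in TPM in replicate 1, 2.80 times Rpph1, and Rpph1 was the higher in replicate 2, where Rmrp stood at 0.911 times Rpph1. The second quantification gave 2.53 and 0.866 times, so the order of these RNAs did not hold over the 2 libraries. In counts, Rpph1 was 0.541 times Rmrp in replicate 1 and 1.68 times in replicate 2. Against Rn7sk, the 7SK RNA and another RNA polymerase III product of similar length (331 bases), Rpph1 counts were 21.3% and 23.0%. Rmrp counts were 39.4% and 13.7% of those of Rn7sk.

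**Figure D1:**
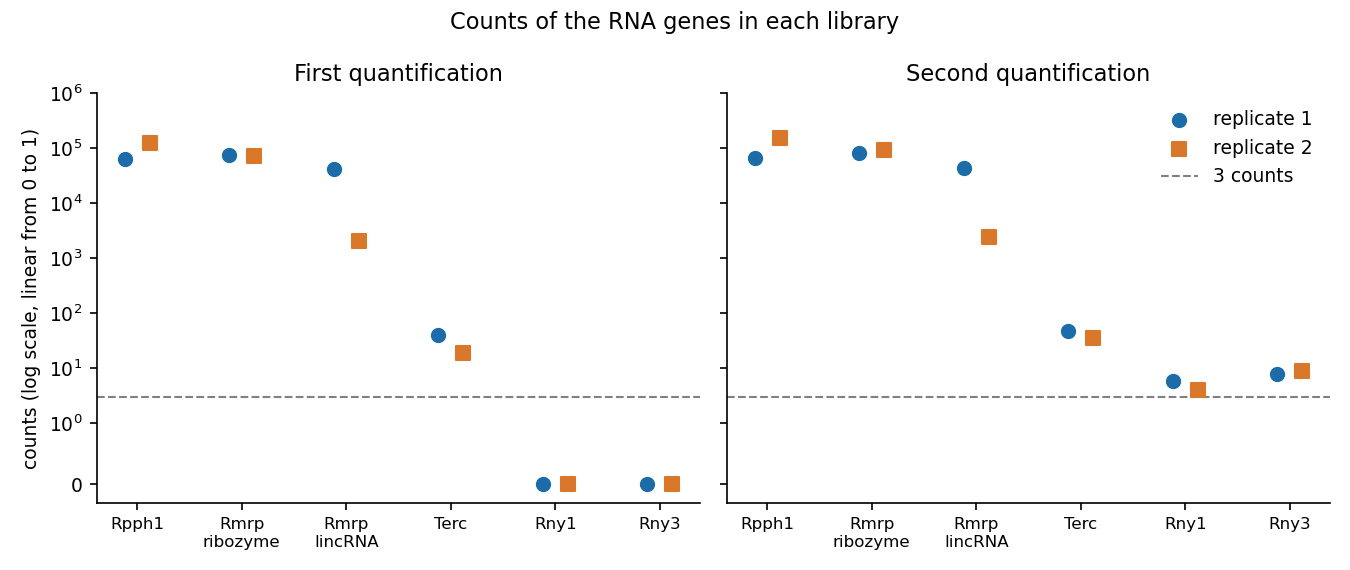
Counts of each gene identifier (vertical axis, log scale that is linear from 0 to 1) in the first (left) and second (right) quantification, with circles for replicate 1, squares for replicate 2 and a dashed line at 3 counts, the upper bound for an observed 0. Rpph1 and the Rmrp ribozyme entry lie at 65142 to 151881 counts, Terc lies at 19 to 48, and Rny1 and Rny3 lie at 0 on the left and at 4 to 9 on the right.

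The division of Rmrp between its entries differed between the libraries far more than the sum did. The ribozyme entry had 77565 expected counts in replicate 1 and 72213 in replicate 2, at 55226 and 37966 TPM. The lincRNA entry had 42870 and 2090, at 27391 and 993 TPM. The lincRNA entry thus took 35.6% (35.3 to 35.9) of Rmrp counts in replicate 1 and 2.81% (2.70 to 2.93) in replicate 2. The second quantification divided them alike, with 43993 and 2479 estimated counts on the lincRNA entry, or 35.1% and 2.59%. The intervals given here leave out the uncertainty of the division itself. For that, the deposited posterior SD of the count was 385 in replicate 1 and 107 in replicate 2 for each entry. This SD was small beside the difference of the lincRNA counts. Since the entries differ only in the capital letters shown above, the values are a division made by each program, and whether longer molecules were present was not tested. RefSeq gives Rmrp as 275 bases, between the lengths of the 2 entries.

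**Figure D2:**
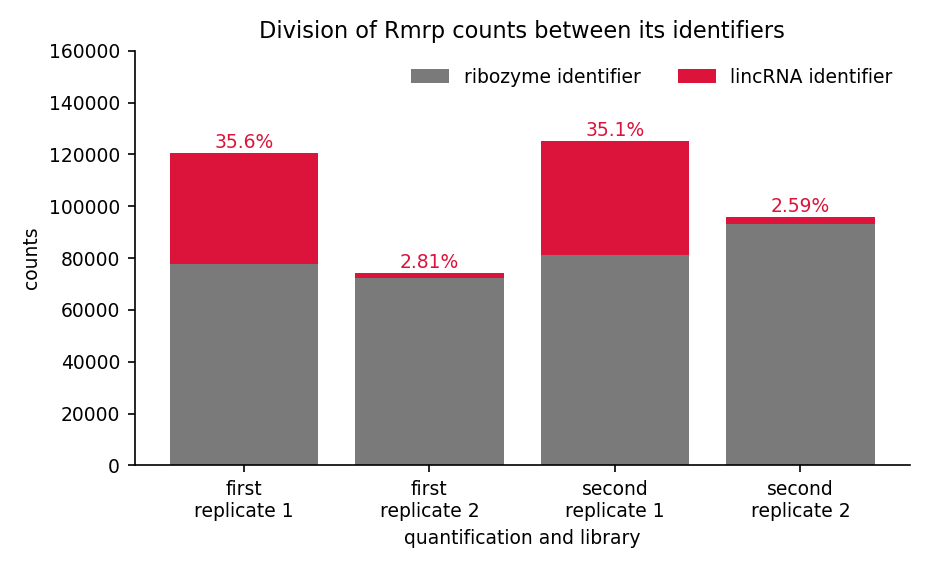
Bars show Rmrp counts, split into the ribozyme entry (grey) and the lincRNA entry (red), for each quantification and library. The percentage above a bar is the share of the lincRNA entry, 35.6% and 2.81% in the first quantification and 35.1% and 2.59% in the second.

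The ratio of replicate 2 over replicate 1 compares 2 libraries of 1 group, not conditions, and in bulk RNA it cannot tell fewer cells from less RNA per cell. It was taken from TMM-scaled counts with an exact binomial 95% counting interval, for genes whose scaled counts averaged at least 10. Of the 6 identifiers, 4 passed this minimum and the Y RNAs did not. A gene was called when it was over 2-fold apart with an interval clear of 0, which 4.36% of 15557 genes were in the higher direction and 3.66% in the lower. The lincRNA entry of Rmrp was the member called, with a log2 ratio of −4.30 (−4.36 to −4.24), or 19.7-fold lower in replicate 2. Its interval leaves out the uncertainty of the division between the Rmrp entries. Among all genes the central 95% of log2 ratios ran from −1.20 to 1.28, and among 138 noncoding genes of 200 to 500 bases from −3.74 to 1.73. This entry lay outside both ranges. Such ranges leave some genes outside by construction, and the members were among the genes that set them.

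The other ratios stayed inside both ranges. Rpph1 was higher in replicate 2 by 0.99 (0.98 to 1.01) on the log2 scale, just short of 2-fold. The ribozyme entry of Rmrp was nearly level, at −0.04 (−0.06 to −0.03), and Rmrp summed stood at −0.64 (−0.65 to −0.62). Terc stood at −0.99 (−1.88 to −0.19). An interval clear of 0 is common at these depths, being found for 24.5% of genes in the higher direction and 25.6% in the lower, and the median log2 ratio of all genes was 0.0035. Rn7sk stood at 0.88 and the 7SL RNAs Rn7s1 and Rn7s2, the RNA of the signal recognition particle, each at −0.95, so short RNA polymerase III products lay on both sides. Rpph1 was higher and Rmrp summed and Terc were lower in replicate 2 under each scaling and quantification tried. The ribozyme entry was not of stable sign: the TPM of the second quantification gave 0.37, where the median of all genes was 0.57.

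**Figure D3:**
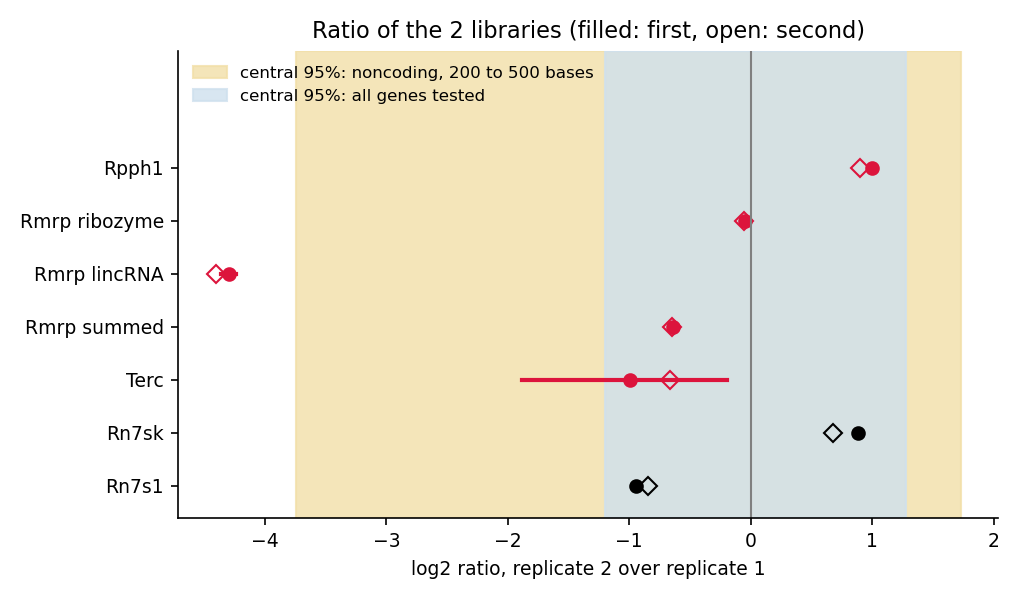
Points show the log2 ratio of replicate 2 over replicate 1 from the first (filled) and second (open) quantification, with lines for the counting interval of the first. The shaded bands hold the central 95% of all 15557 genes tested (blue) and of 138 noncoding genes of 200 to 500 bases (yellow), and the Rmrp lincRNA entry at −4.30 lies outside both.

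Terc had 40 expected counts in replicate 1 and 19 in replicate 2. Its level was 9.73 and 3.61 TPM, or 6.67 ± 4.33 (SD, n = 2). The second quantification gave 48 and 36 estimated counts and 3.63 and 3.29 TPM. Replicate 1 was the higher in all of these, by an amount that depended on the quantification: the second gave a log2 ratio of −0.67 (−1.34 to −0.02). In mean TPM, Rpph1 stood 3 to 4 orders of magnitude above Terc in both tables.

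Rny1 and Rny3 were listed at 0 in both libraries of the first quantification, with an effective length of 0. Effective length is the number of positions at which a fragment could start, and the labels give a size range of 250 to 400 for the libraries. An effective length of 0 was given to 4687 genes in replicate 1, the longest of 125 bases, and to 4539 in replicate 2, the longest of 122 bases. Such genes together held 19.95 expected counts in replicate 1 and 10.77 in replicate 2, so counts were rare there but not impossible. The 0 of the Y RNAs in that table thus does not show that the RNAs were absent.

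The second quantification gave these entries a nonzero effective length and a few counts. Rny1 had 6 estimated counts in replicate 1 and 4 in replicate 2, or 5.31 and 6.05 TPM. Rny3 had 8 and 9, or 7.12 and 14.6 TPM. Each count lay above 3, the upper bound for an observed 0, which is not a measured background. The libraries did not differ beyond counting error, with log2 ratios of −0.79 (−3.11 to 1.23) for Rny1 and −0.10 (−1.63 to 1.49) for Rny3. The effective lengths behind these TPM were 18.3 and 14.8 bases for Rny1 and 18.2 and 13.9 for Rny3. In that table the order by TPM was Rny3, Rny1 and Terc in both libraries, on counts of 4 to 48. Of 2656 noncoding genes of 90 to 125 bases, 986 had estimated counts above 0, and 381 had more than Rny3 and 482 more than Rny1 over both libraries.

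In every class of noncoding genes up to 500 bases, more had counts above 0 in the second quantification. The gap was widest in the classes up to 125 bases. All 2190 noncoding genes of up to 100 bases and 93.7% of 2097 genes of 101 to 125 bases had an effective length of 0 in both libraries, and none of 1106 genes of 126 to 150 bases did. Counts above 0 were found for 0% and 1.10% of the shorter classes in the first quantification and for 34.6% and 37.0% in the second. In the class of 301 to 400 bases, which holds Rpph1, the values were 23.7% and 45.5%. Effective length also shortened the longer members: it was 116 and 126 bases for Rpph1, 73.9 and 82.2 for the ribozyme entry of Rmrp and 216 and 227 for Terc. With annotated length in its place, the mean was 28620 TPM for Rpph1, 36257 for Rmrp and 7.18 for Terc.

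**Figure D4:**
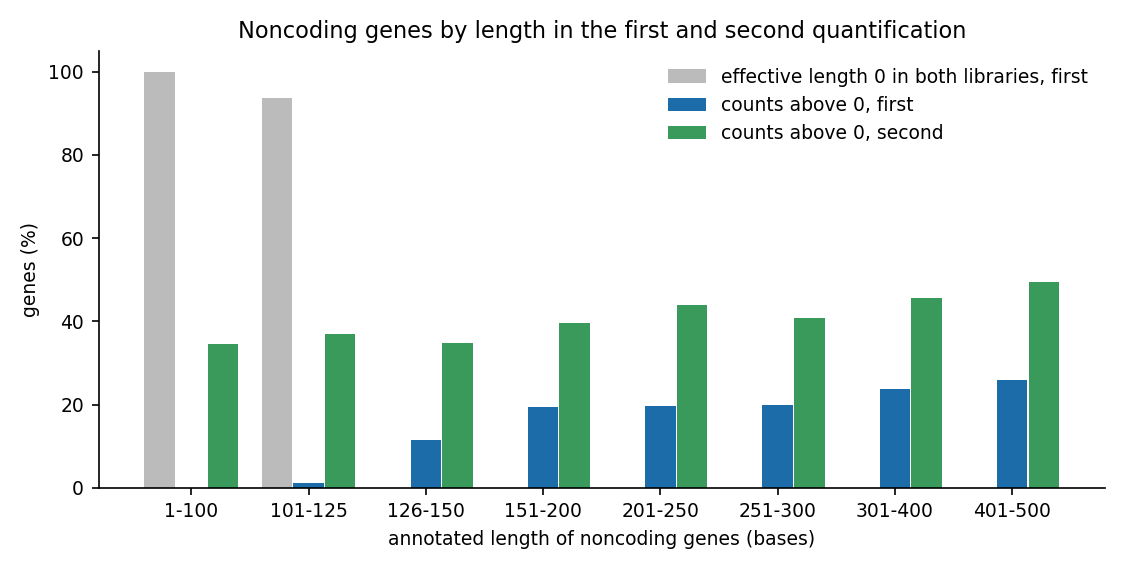
Bars show, by annotated length of noncoding genes in bases, the percentage with an effective length of 0 in both libraries (grey) and the percentage with counts above 0 in the first (blue) and second (green) quantification. Rny1 and Rny3 fall in the class of 101 to 125 bases, where 93.7% had an effective length of 0.

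Among 19465 noncoding genes ranked by mean TPM, the ribozyme entry of Rmrp was 2nd, Rpph1 5th, the lincRNA entry 8th and Terc 731st. In the second quantification they were 5th, 6th, 11th and 3024th. These ranks of the mean hide differences between the libraries: in the first quantification Rpph1 was 5th in replicate 1 and 2nd in replicate 2, the ribozyme entry 2nd and 4th, the lincRNA entry 6th and 33rd and Terc 555th and 1070th. The genes nearest in level to Rpph1 and Rmrp were mostly short structured RNAs. Rn7sk stood just above the ribozyme entry at 148247 TPM, Rn7s1 and Rn7s2 between it and Rpph1 at 36388 TPM each, and the snRNA entry Gm22513 (30524 TPM) and the nuclear lncRNA Malat1 (26252 TPM) just below Rpph1. Rn7s1 and Rn7s2 carry identical values in every library, so their reads were divided evenly, and in replicate 2 they stood at 19827 TPM each, below both Rpph1 and the ribozyme entry. The lincRNA entry was followed by the snoRNA entries Gm22988 (13021 TPM) and Gm26447 (11901 TPM). Nearness in TPM was not nearness in counts. Gm22988 (144 bases) had 402 and 2186 counts, Gm26447 (129 bases) 510 and 174, and Gm22513 (164 bases) 3385 and 10339. Noncoding genes of 126 to 150 bases had a median effective length of 1.72 and 2.23 bases, so TPM of such short entries rest on few positions. Terc was flanked by 4930565N06Rik (6.69 TPM) and Gm47761 (6.675 TPM) above and by 2900076A07Rik and Gm43774 (6.645 TPM each) below.

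The rest of the annotated ribozyme class held almost no counts. Of 22 ribozyme genes, the 20 other than Rpph1 and Rmrp held 9 expected counts in replicate 1 and 3 in replicate 2, on 2 genes, Gm23916 and Gm26464. The Rpph1-like genes Rprl1, Rprl2 and Rprl3 had 0 in both. In the second quantification the 20 genes held 69 and 110 estimated counts, with 4 and 20.4 on Rprl2 and 0 and 14.6 on Rprl3, which share 1.38% and 4.50% of the 31-base words of Rpph1. Rpph1 and the ribozyme entry of Rmrp aligned with 51.7% identity over 329 columns, and their longest shared run was 9 bases.

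Overlapping and neighbouring genes were far lower than the abundant members. Exon 1 of a transcript of Ccnb1ip1, a cyclin B1 interacting protein gene, covers 233 bases of Rpph1 on the same strand and holds 70.2% of its 31-base words. Ccnb1ip1 had 0 expected counts in both libraries and 16.2 and 3.47 estimated counts, so reads of the shared bases were given almost wholly to Rpph1. Parp2 had 823 and 773 expected counts, a log2 ratio of −0.03 (−0.17 to 0.11). Gm48938, on the other side of Rpph1, had 0.

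Exon 1 of a Ccdc107 transcript, at chr4:43492900-43493023 on the plus strand, covers 124 bases of Rmrp on the opposite strand. Ccdc107, a coiled-coil protein gene, had 65 and 35 expected counts, while the transcript with this exon had 0 and 0 in the first quantification and 25.4 and 115 estimated counts in the second. No source used here says whether strand was used in counting, so reads of Rmrp and of this exon cannot be told apart. Sit1 had 0 counts in both libraries, and Arhgef39, on the other side, had 38 and 40. Near Terc, the pseudogene Gm21960 had 3 and 4 counts and the snRNA entry Gm24136 had 0. The pseudogene Rpl31-ps7, which stands between Rny3 and Rny1, and Gm25283 had 0, and Pdia4, an endoplasmic reticulum protein disulfide isomerase gene 7960 bases from Rny1, had 1088 and 1343.

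The genes listed as partners of these RNAs, 64 in 7 lists, were described by their level and by the ratio of the libraries. At 1 TPM or more in both libraries stood 58 of 64, with a median of 6.77 TPM and a highest mean of 145 TPM. In the second quantification 53 did. Of 61 genes with enough counts for a ratio, 14 (23.0%) were higher and 13 (21.3%) lower in replicate 2 with an interval clear of 0, near the shares of all genes. List medians of the log2 ratio lay between −0.07 and 0.29. Genes given below for such an interval, beyond the highest and lowest of a list, were named after their values were seen.

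RNase P and RNase MRP proteins reached 1 TPM in both libraries for 7 of 11 genes, with a median of 1.88 TPM. In the second quantification 5 of 11 did. The highest was Rpp21, a subunit of RNase P, at 10.1 and 9.01 TPM, followed by Pop5 (6.19 and 2.90 TPM) and Pop4 (4.35 and 3.41 TPM), both shared with RNase MRP. Rpp25 was the lowest, with 1 and 0 counts, and its relative Rpp25l had 14 and 5. Pop7, the usual partner of Rpp25, was the gene of the 7 lists called over 2-fold apart, with 24 and 6 counts and a log2 ratio of −1.85 (−3.52 to −0.61). Pop1, the largest subunit, was lower too (248 and 151 counts, −0.65), and Rpp38 was higher (24 and 44 counts, 0.92), among 9 genes with a ratio.

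For telomerase, Tert, the reverse transcriptase, was the lowest gene of its list of 6, with 0 and 4 counts (0 and 0.07 TPM) in the first quantification, against 41.3 and 26.7 estimated counts (0.256 and 0.217 TPM) in the second. The H/ACA proteins were higher, led by Dkc1 (dyskerin) at 7.93 and 9.07 TPM, Gar1 at 6.81 and 6.85 and Nhp2 at 6.49 and 2.60. Nop10 stayed below 1 TPM, at 0.64 and 0.62. In either quantification 4 of 6 genes of this list reached 1 TPM in both libraries. Of 5 genes with a ratio, Dkc1 was higher (0.44) and Nhp2 (−0.86) and Wrap53 (−0.97) were lower. All 10 genes of Terc maturation reached 1 TPM in the first quantification, and 9 did in the second. The lowest was Ruvbl2 (1.77 and 1.69 TPM), an assembly ATPase. The highest were the nuclear exosome targeting genes Rbm7 (44.4 and 25.2 TPM) and Zcchc8 (38.0 and 21.8 TPM). The cap methyltransferase Tgs1 (27.4 and 19.5 TPM) followed. Rbm7 (−0.46) and Zcchc8 (−0.39) were lower, and the poly(A) enzymes Parn (0.29) and Tent4b (0.29) higher, in replicate 2. All 7 shelterin genes, whose proteins cover telomere ends, reached 1 TPM. Pot1b was the highest (45.1 and 32.0 TPM), then Terf2 (13.9 and 11.2 TPM) and Pot1a (9.82 and 9.16 TPM), and Terf2ip the lowest (2.35 and 2.19 TPM). Acd (−0.47) and Pot1b (−0.19) were lower in replicate 2.

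The genes listed as Y RNA binders had the highest list median, 37.0 TPM, with 8 of 8 at 1 TPM. They include Zbp1 (30.6 and 23.5 TPM), the symbol of Z-DNA binding protein 1, whose binding to Y RNAs was not established here. The list median and the count of 64 partner genes include it. Hnrnpk led at 152 and 137 TPM, then Matr3 (72.8 and 67.5 TPM) and Ptbp1 (59.2 and 60.4 TPM), all RNA-binding proteins of the nucleus. Ro60, annotated as Trove2, was the lowest at 2.84 and 3.06 TPM, and Ssb, which encodes the La protein, stood at 31.5 and 32.5 TPM. Ncl (0.74), Trove2 (0.50), Ssb (0.47) and Ptbp1 (0.16) were higher and Puf60 (−0.47) and Hnrnpk (−0.10) lower in replicate 2.

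The genes listed as factors of upstream RNA polymerase III promoters reached 1 TPM for 11 of 11, with a median of 6.33 TPM. In the second quantification 10 did. The list includes Maf1 (14.2 and 13.0 TPM), whose place as a promoter factor was not established here. Snapc3 (39.3 and 32.5 TPM) and Snapc4 (22.2 and 15.5 TPM), subunits of the complex that reads the upstream element, and Bdp1 (23.7 and 17.8 TPM), a subunit of TFIIIB, were the highest, and Snapc2 the lowest (1.70 and 1.68 TPM). Snapc5 (0.66), Tbp (0.63), Brf2 (0.60) and Snapc3 (0.43) were higher and Snapc4 (−0.26) and Snapc1 (−0.23) lower. Of the RNA polymerase III subunits, 11 of 11 reached 1 TPM with a median of 7.15 TPM, and 10 did in the second quantification. The highest were Polr3gl (18.6 and 21.1 TPM), Polr3c (14.9 and 13.0 TPM) and the largest subunit Polr3a (15.2 and 8.64 TPM). Polr3g, the relative of Polr3gl, was the lowest (1.33 and 2.99 TPM). Polr3f (0.35) and Polr3gl (0.30) were higher and Polr3a (−0.44) lower in replicate 2.

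**Figure D5:**
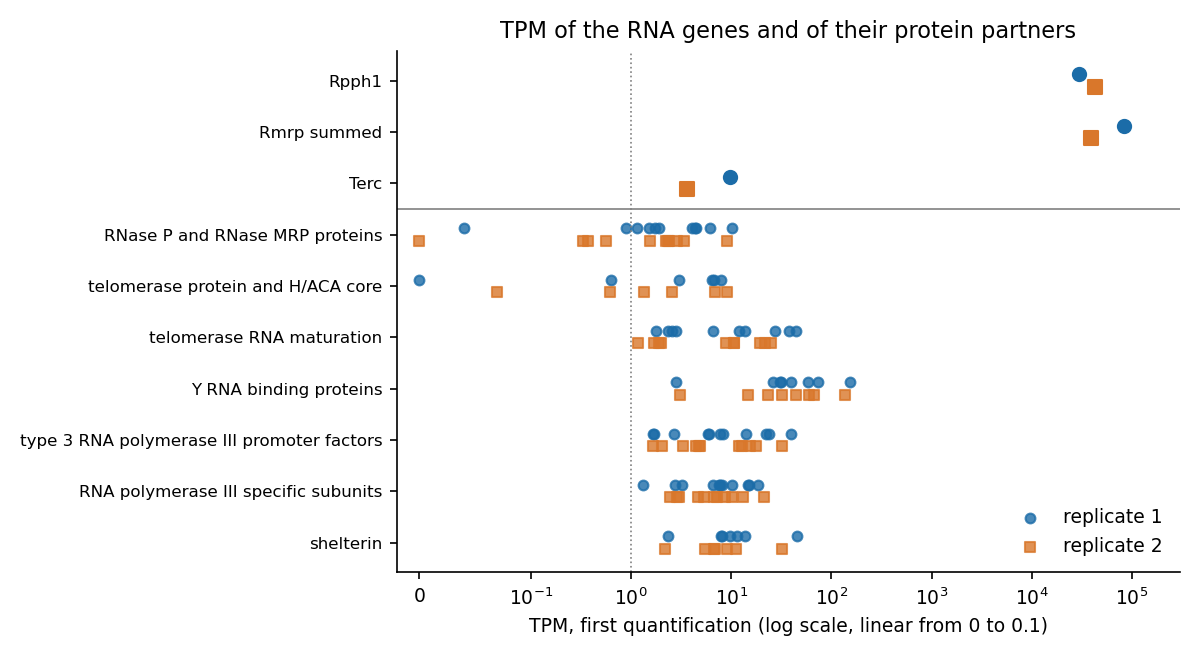
Points show TPM of the first quantification (horizontal axis, log scale that is linear from 0 to 0.1) for Rpph1, Rmrp summed and Terc and for each gene of the 7 partner lists, with circles for replicate 1, squares for replicate 2 and a dotted line at 1 TPM. Partner genes lie at or below 152 TPM, while Rpph1 and Rmrp lie at 29483 to 82617 TPM and Terc at 3.61 and 9.73 TPM.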

How the data were processed

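Each library had 3 deposited tables. The authors' gene and transcript tables (first quantification, RSEM column names per the file headers) give expected counts, TPM and FPKM. The authors' other deposited table (second quantification, kallisto column names) gives estimated counts and TPM per transcript, summed here per gene. The accompanying notes name mm10 and GENCODE M21, and no source used here gives versions, settings or strand. The members and gene lists were chosen with earlier results of these data known. All members are named, and of each list the 3 highest, the lowest and any gene over 2-fold apart, with annotated neighbours and the 2 noncoding genes on each side by TPM.

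Expected counts were rounded and scaled by TMM (edgeR 4.0.16, R 4.3.3). Ratios used a prior count of 0.5. Scripts ran in Python 3.11.15 with scipy 1.17.1, pandas 2.3.3, numpy 2.4.6, biopython 1.88 and matplotlib 3.10.9. The ratio calculation was also run on simulated counts with counting error and planted changes but no other variation between libraries. It checked the calculation only. Lacking molecular identifiers, reads are not independent molecules, so intervals cover counting error only. With 1 group no test between conditions was possible, and p-values were not computed. Alternatives were library totals, size factors of DESeq2 1.42.0, ratios of TPM, FPKM, posterior-mean TPM, other minimums and priors, the second quantification and each library alone. Levels and shares were also taken without mitochondrial genes and ribosomal RNA loci. Annotated length, the sum of the Rmrp entries, ratios scaled without those genes, and TPM ratios of the second quantification were added after seeing the data. The list of erythroid markers is not reported here.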

Additional observations from a re-analysis of the deposited data

Results flagged for a closer look

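Rny1 and Rny3 had estimated counts in the second quantification although the first lists them at 0 with an effective length of 0. Rny1 had 6 estimated counts in replicate 1 and 4 in replicate 2, and Rny3 had 8 and 9. Each lay above 3 counts, the upper bound for an observed 0, which is not a measured background. No control library was used here, and the part of other short RNAs in these counts was not tested.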

How the results depend on the processing

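No paired analysis was possible because the labels give 1 group, and a ratio of 2 libraries cannot be had without either. The second quantification lowered mean TPM to 15970 for Rpph1 and 21287 for Rmrp and gave 5.68 for Rny1 and 10.8 for Rny3. Over single libraries the levels ran from 29483 to 42770 TPM for Rpph1, 38959 to 82617 for Rmrp and 3.61 to 9.73 for Terc, with 0 for Rny1 and Rny3. The members took 1.04% of counts, 1.02% to 1.07% over single libraries, 1.13% without mitochondrial genes and ribosomal RNA loci and 0.795% in the second quantification. Terc passed 2-fold with DESeq2 size factors (−1.03), library totals (−1.09) and TPM ratios with a pseudocount of 0.1 (−1.41) or 1 (−1.22), and so did Rmrp summed with either TPM ratio (−1.08 each). The TPM of the second quantification took Rpph1 past 2-fold (1.36) and the ribozyme entry of Rmrp to 0.37. That scaling moved the median of all genes to 0.57 and the first TPM ratio moved it to −0.35. Relative to these medians Rpph1 stood at 0.80 and 0.89, Rmrp summed at −0.75 and −0.73 and Terc at −0.71 and −1.05. The lincRNA entry stayed past 2-fold lower throughout. Genes over 2-fold higher and lower, 678 and 570, numbered 146 and 194 at a minimum count of 100, 1852 and 1043 in the second quantification, and 5322 and 213 from its TPM. First TPM ratios gave 255 and 1507 (pseudocount 0.1) and 93 and 761 (pseudocount 1). The cause of these shifts was not tested. Partner genes at 1 TPM numbered 58 to 60 over single libraries and 53 in both libraries of the second quantification. The median TPM of the 7 lists gave 28 values over the alternative settings, and 8 of these moved beyond the spread. In the second quantification the medians of 5 of the 7 lists moved. Of 28 such values of the median ratio, 3 moved. Terc rests on 19 to 48 counts, and the Y RNAs on 4 to 9 counts in the second quantification alone.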
